A study of Mus musculus with 6 samples.

Results

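E2F1 was mapped by chromatin immunoprecipitation and sequencing (ChIP-seq) in NIH/3T3, a long-established mouse embryo fibroblast line, and 679 of the 7006 E2F1 intervals found in both replicates lay deep inside gene bodies (9.69%, 95% Wilson interval 9.02% to 10.4%). An interval was the union of overlapping peaks of the 2 E2F1 lists. It was counted here if it overlapped the annotated span of a protein-coding gene and lay over 1000 bp from the boundary of every annotated gene, coding or not. Of the remainder, 6141 lay within 1000 bp of a gene boundary, 149 outside all genes, 32 inside non-coding genes and 5 on unplaced scaffolds. Ground that satisfies the rule made up 35.8% of the annotated span of the assembled chromosomes. Both groups of cells carried a doxycycline-inducible construct, either E2F1 or an empty vector (EV), with 2 libraries each. All were starved at 0.25% serum for 48 hours and then given doxycycline for 12 hours. The labels' protocol gives the dose as 500 ng/ml, while the names of the deposited lists carry the number 200 beside the agent, so the dose is uncertain. The labels do not state separate cultures for the replicates, and do not say which promoter drives the construct or whether each line is 1 clone. The peak lists hold no measure of the cell type, of the cell cycle state or of E2F1 levels, so E2F1 from the construct and from the cells' own gene cannot be told apart.

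E2F1 is a transcription factor that binds DNA as a heterodimer with a DP protein and is held in check by the retinoblastoma protein in resting cells. Its known targets are genes for entry into S phase, nucleotide synthesis and DNA replication, and it usually sits close to transcription starts in CpG-rich promoters, often over a word such as TTTCCCGC or TTTGGCGC. Many mouse genes have several promoters, so a start of transcription can lie well inside the outer limits that an annotation gives the gene. Regions called gene body by distance to those limits can thus hold promoters, enhancers or exons.

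Most of the 679 intervals lay on an annotated transcription start of the gene that held them. A start region is the window from 250 bases before to 50 bases after a listed RefSeq start (GRCm38.p6, the assembly of the mm10 build that the submitters' processing notes name). Such a region of the host gene was covered by 452 of the intervals (66.6%, 95% Wilson interval 62.9% to 70.0%), and 116 covered none. For the other 111 the host gene has no entry in the start table. Among the 568 intervals whose host is listed, 79.6% (76.1% to 82.7%) covered a start. The share was higher near gene boundaries: of 4845 intervals within 1000 bp of a boundary of a listed coding gene, 94.8% (94.1% to 95.4%) covered a start of such a gene. The label of deep gene body thus described distance to the outer gene limits and not distance to starts.

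The sequences in front of these internal starts are shown for the 7 start regions of highest rank by fold enrichment that hold an E2F word wholly upstream of the start with no other listed start shortly before it. Each line gives bases upstream of the start, 5′ to 3′ on the gene's strand, on GRCm38 and from RefSeq, with the word in capitals.
Trmo, chr4:46389438-46389502, minus strand: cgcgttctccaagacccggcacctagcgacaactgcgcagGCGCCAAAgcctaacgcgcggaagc
Stag1, chr9:100643391-100643447, plus strand: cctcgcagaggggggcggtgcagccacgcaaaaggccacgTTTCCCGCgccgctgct
Cntln, chr4:84884154-84884241, plus strand: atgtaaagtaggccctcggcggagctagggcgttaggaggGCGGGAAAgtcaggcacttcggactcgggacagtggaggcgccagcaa
Mbnl1, chr3:60500929-60501006, plus strand: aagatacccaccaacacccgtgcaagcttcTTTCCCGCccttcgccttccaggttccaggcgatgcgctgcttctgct
Phip, chr9:82975522-82975609, minus strand: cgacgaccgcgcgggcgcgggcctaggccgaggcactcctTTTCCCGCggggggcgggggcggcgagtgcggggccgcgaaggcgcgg
Bcl2l1, chr2:152830815-152830902, minus strand: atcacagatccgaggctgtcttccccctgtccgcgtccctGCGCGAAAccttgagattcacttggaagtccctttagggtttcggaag
Klhl15, chrX:94234879-94234929, plus strand: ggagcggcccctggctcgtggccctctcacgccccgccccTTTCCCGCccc
Most of the words read TTTCCCGC or GCGGGAAA, the same site found on the other strand. In Trmo, a tRNA methyltransferase, the word began 25 bases before the start and the interval had a fold enrichment of 47.3 in replicate 1 and 69.3 in replicate 2. In Stag1, a subunit of the cohesin ring, the word began 17 bases before the start and the folds were 62.7 and 44.2. The Stag1 summits lay 603 and 758 bp downstream of that start in replicates 1 and 2, away from the word. Those of Trmo lay 59 and 74 bp downstream of its start. Cntln, which encodes the centriolar protein centlein, had its word 115 bases before the start and folds of 18.8 and 91.3, the highest of any of these intervals in replicate 2. The fold enrichment is the authors' own value for a peak, the ratio of reads at the summit to the local background. A match to a word is a description of the letters and not evidence of a bound site.

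A second set contrasts starts of the same gene, since in 153 genes an interval covered a start deep in the gene while another listed start over 1000 bp away was covered by none. The 3 genes shown are Dnmt1 (the maintenance DNA methyltransferase), Runx1 (a transcription factor of blood and mesenchyme) and Cdkn1a (the cyclin-dependent kinase inhibitor p21), in each case with the 120 bases before the start, 5′ to 3′ on the gene's strand, and every CpG in capitals.
Dnmt1 start without an interval, chr9:20959889-20960008, minus strand: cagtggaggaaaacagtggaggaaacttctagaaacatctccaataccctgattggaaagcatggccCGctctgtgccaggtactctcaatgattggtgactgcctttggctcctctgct
Dnmt1 start under the interval, chr9:20952980-20953099, minus strand: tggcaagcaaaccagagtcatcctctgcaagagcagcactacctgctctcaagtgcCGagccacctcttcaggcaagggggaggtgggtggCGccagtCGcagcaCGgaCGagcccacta
Runx1 start without an interval, chr16:92826075-92826194, minus strand: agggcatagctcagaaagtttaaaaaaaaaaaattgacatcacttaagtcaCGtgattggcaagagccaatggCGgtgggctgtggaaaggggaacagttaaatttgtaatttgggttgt
Runx1 start under the interval, chr16:92697330-92697449, minus strand: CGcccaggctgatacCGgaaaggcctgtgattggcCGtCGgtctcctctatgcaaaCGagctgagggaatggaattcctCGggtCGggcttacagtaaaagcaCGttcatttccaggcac
Cdkn1a start without an interval, chr17:29090859-29090978, plus strand: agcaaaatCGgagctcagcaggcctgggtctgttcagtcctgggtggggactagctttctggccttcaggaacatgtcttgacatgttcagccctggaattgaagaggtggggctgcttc
Cdkn1a start under the interval, chr17:29093649-29093768, plus strand: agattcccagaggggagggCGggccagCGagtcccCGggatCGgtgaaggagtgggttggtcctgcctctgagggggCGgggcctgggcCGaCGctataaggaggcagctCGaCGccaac
In Dnmt1 the uncovered start had 1 CpG in these bases and the covered start, 6909 bp further in, had 5. The interval also covered a further Dnmt1 start that is not printed here, and its summits lay nearest to that one, 194 and 1 bp away. Runx1 had 2 at the start that opens the gene and 8 at the covered start 128745 bp inside it. In Cdkn1a the counts were 1 and 9, with the covered start 2790 bp inside the gene. The summits of the Cdkn1a interval lay 894 and 1740 bp downstream of the covered start in replicates 1 and 2.

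The comparison with EV cells asks which of these peaks were found without the E2F1 construct, and few peaks deep in gene bodies were listed for EV cells. Peaks deep in gene bodies numbered 844 and 881 in E2F1 replicates 1 and 2 and 9 and 76 in EV replicates 1 and 2. The lists hold 7836, 8027, 70 and 358 peaks in the same order, so that deep peaks were 10.8% and 11% of the E2F1 lists and 12.9% and 21.2% of the EV lists. The deep counts did not overlap between groups, with means of 862.5 ± 26.2 (SD, n = 2) and 42.5 ± 47.4 (SD, n = 2) and a 33.0-fold ratio of geometric means, beside a 50.1-fold ratio over all peaks. By an exact permutation test, two-sided, p was 0.333, which is the lowest that 2 libraries against 2 allow. The EV libraries differed widely, as the log2 ratio of 5.04 became 3.50 without EV replicate 1 and 6.58 without EV replicate 2. Every list was cut at a −log10 p-value of about 10, so weaker sites are not listed, and the genome-wide background behind the peaks was 1.18 to 2.20 reads across the 4 lists. Start regions were covered by 480 of the 844 peaks in E2F1 replicate 1 (56.9%) and 515 of the 881 in replicate 2 (58.5%). None of the 9 and none of the 76 EV peaks covered one, counts that allow up to 33.3% and 3.95%.

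Of the 679 intervals, 2 were overlapped by an EV peak (0.295%), against a background of 0.271% of all consensus intervals. Both lay in Chaf1a, which encodes the large subunit of the histone chaperone CAF-1 that loads histones behind the replication fork. At chr17:56046820-56047641 the fold was 19.8 and 2.60 in the 2 E2F1 replicates, and it was 11.3 and 120.8 in the 2 EV replicates. At chr17:56063997-56065406 the E2F1 folds were 12.6 and 4.90 and the EV folds 9.22 and 168.5. EV replicate 2 was the highest of the 4 libraries at both sites, and EV replicate 1 was below E2F1 replicate 1 and above E2F1 replicate 2. These were the 2 strongest peaks of each EV list by fold. Neither interval covered a start of Chaf1a, and the origin of the EV peaks was not tested.

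Fold enrichment was about as high deep in genes as near gene boundaries. The median was 9.81 in replicate 1 and 12.0 in replicate 2 for the 679 intervals, with ranges of 3.55 to 62.7 and 2.60 to 91.3. For intervals near a boundary the medians were 9.92 and 12.9. The log2 difference was -0.02 in replicate 1 and -0.09 in replicate 2, with a mean of -0.06 ± 0.06 (SD, n = 2), and the exact two-sided sign-flip p was 0.5, the smallest possible with 2 replicates. Intervals over a start had medians of 10.2 and 12.9, above the 8.65 and 9.62 of those over none, which in turn were close to the 8.43 and 9.45 of intervals outside all genes. At or above the median of all consensus intervals in both replicates were 37.3% of the 679, beside a background of 38.3%. The share was 39.8% over a start and 25% over none.

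The replicates ordered the intervals alike, with a Spearman rho of 0.70 over the 679 (n = 679 intervals in 2 libraries that share the sites, with no p) and 0.70 over all consensus intervals. Replicate 2 had the higher fold in 454 of the 679 (66.9%), and the median log2 ratio of replicate 2 over 1 was 0.29, beside 0.34 near gene boundaries. In 107 intervals replicate 2 was over 2 times as high and in 11 replicate 1 was. The plot of fold enrichment in both replicates shows these spreads. Summits of the 2 replicates lay within 200 bp of each other in 605 intervals (89.1%), and the median gap was 49 bp. The median width was 1083 bp, from 321 to 4529 bp.

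**Figure D1:**
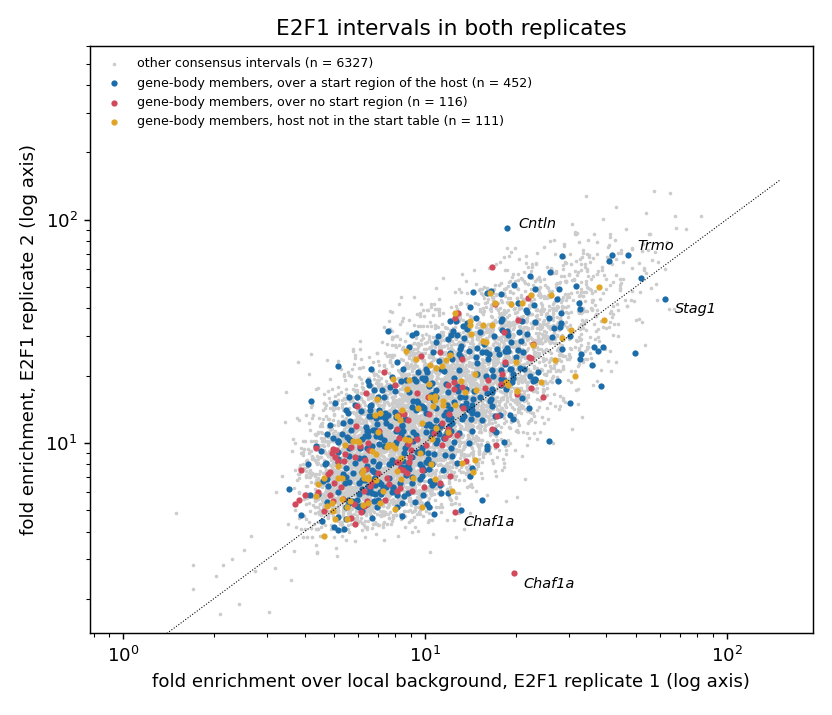
Fold enrichment of each consensus interval in E2F1 replicate 1 (x) and replicate 2 (y), both on log axes, with the 679 gene-body intervals coloured by whether they cover a start region of the host gene and the other 6327 in grey; the dotted line marks equal values. The coloured points spread over the grey cloud, and 1 Chaf1a interval stands below it with a fold of 19.8 in replicate 1 and 2.60 in replicate 2.

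The summits sat just downstream of the start, as they did at gene boundaries. The median summit of the 452 intervals over a start was 132 bp downstream of the nearest start in replicate 1 and 73 bp in replicate 2, where boundary intervals had 132 and 63 bp. Within 250 bp of a start were 72.3% and 77.9% of their summits in the 2 replicates, against 77.2% and 83.5% at boundaries. Thus slightly fewer of the deep summits were close to a start, in both replicates, while the distance between the replicates' own medians was larger than that between the classes.

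**Figure D2:**
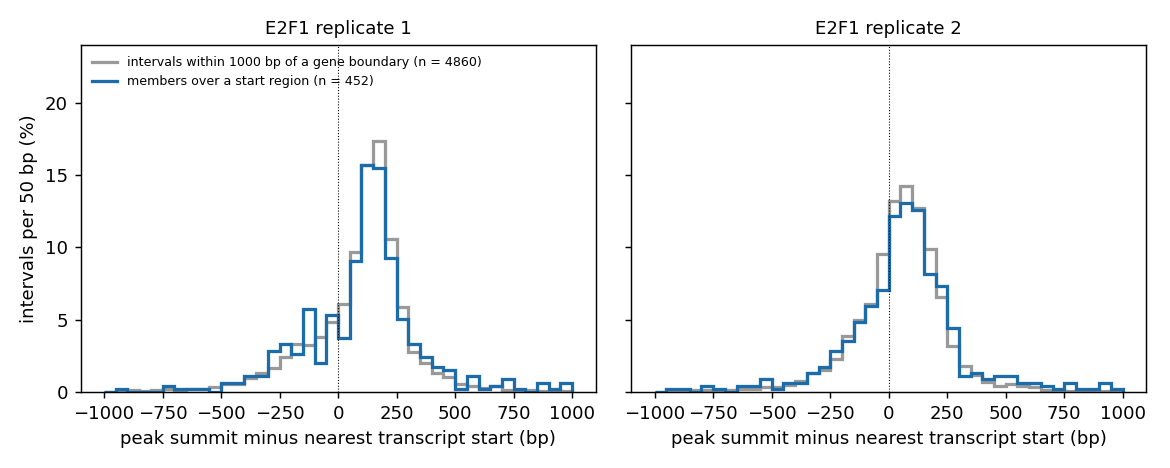
Distance of the peak summit from the nearest transcript start in bp (x, positive downstream) against the percent of intervals per 50 bp (y), for E2F1 replicates 1 and 2. The blue line (452 deep intervals over a start) follows the grey line (4860 boundary intervals over a start), with medians of 132 and 73 bp in the blue line for replicates 1 and 2.

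In all, 445 host genes had an interval over an own start. The table lists 1 start region for 234 of them and more for 211. A start region within 1000 bp of the gene's 5′ boundary was listed for 133 of the 445 (29.9%), a share that the rule itself limits, since a gene with 1 listed start under a deep interval cannot have it at the boundary. In 290 genes (65.2%) the interval covered the most upstream start that the table lists. These include the 234 genes with 1 listed start region, for which this holds by construction, so the share is no result for them. Host genes also carried a predicted transcript model in the annotation more often, 597 of 653 (91.4%) against 56.3% of coding genes. They were also longer than coding genes, as given below, and the share among coding genes of like length is not given here. Of the 133 genes with a listed start at the 5′ boundary, 38 had a consensus interval over that start too (28.6%).

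Start regions under the deep intervals were CpG-rich. They held a median of 25 CpG per 300 bases and 65.0% GC, close to the 26 and 65.3% under other consensus intervals and above the 5 and 50% of start regions under none. At least 20 CpG were present in 70.2% of them, in 75.5% of those under other intervals and in 11.9% of the uncovered ones. Of 3315 start regions of coding genes that lie over 1000 bp from every gene boundary, 673 were covered by a consensus interval (20.3%), 499 by an interval of the gene-body class, beside 32.3% of 16753 start regions near a boundary and a background of 22.2% of all start regions. The shares differed by CpG content. With 0 to 9 CpG, 2.22% of deep and 2.39% of boundary start regions were covered. With 10 to 19 CpG the shares were 24.9% (21.6% to 28.5%) and 32.9% (31.4% to 34.5%), so here the 95% Wilson intervals stood apart. With 20 to 29 CpG they were 53.7% and 57.2%, and with 30 or more 72.4% (67.5% to 76.9%) and 76.8% (75.1% to 78.3%), with intervals that overlapped.

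**Figure D3:**
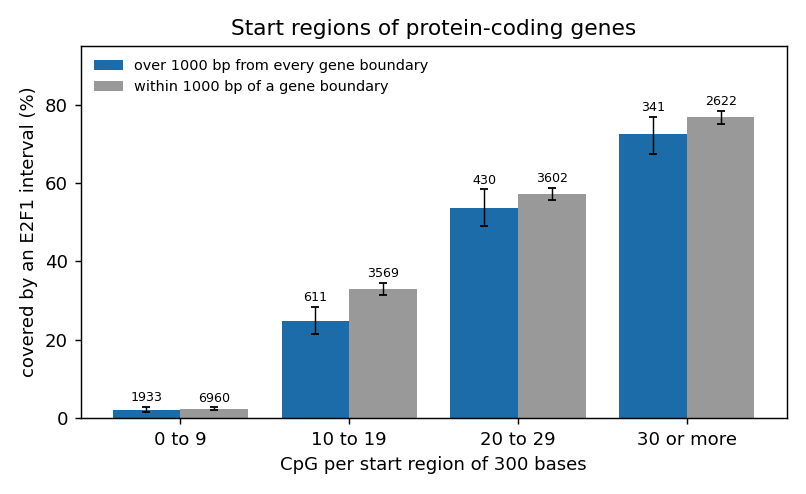
Percent of start regions of coding genes covered by a consensus E2F1 interval (y) by the number of CpG per 300 bases (x), for start regions over 1000 bp from every gene boundary (blue) and within 1000 bp of one (grey). Bars start at 0, error bars are 95% Wilson intervals and the number of start regions stands above each bar; coverage went from 2.22% to 72.4% in blue and from 2.39% to 76.8% in grey.

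E2F words were found in few of the covered start regions. The 8-letter words searched were TTTCCCGC, TTTCGCGC, TTTGCCGC and TTTGGCGC on both strands, and the 7-letter words were the same without the first T, which every 8-letter match also contains. An 8-letter word was present in 23 of 500 start regions under the deep intervals (4.60%, 95% Wilson interval 3.08% to 6.81%), beside a background of 2.27% of all start regions. Under other consensus intervals the share was 6.00% (5.44% to 6.61%) and under none 1.23%. The 7-letter words were present in 20.8%, 23.3% and 5.60% of the same classes and in 9.48% of all start regions. Among start regions with 20 or more CpG the 8-letter shares were 4.84%, 6.18% and 3.59%, and the 7-letter shares 23.4%, 25.4% and 17.5%, so that the classes lay closer together at like CpG content. No match says only that these letters are not in the 300 bases, and the bases under the summits outside start regions were not analysed here.

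Words of other factors were searched in the same way, on both strands. GGGCGG, the box bound by SP factors, was present in 74.0% of start regions under the deep intervals, 76.2% under other intervals, 23.7% under none and 35.3% of all. CCAAT, the box of NF-Y, was present in 32.4%, 36.8%, 37.8% and 37.5%. The ETS word CCGGAAG was present in 15.2%, 20.1%, 5.45% and 8.61%. TGANTCA, the word of AP-1, went the other way, with 5.0%, 3.32%, 9.22% and 7.94%, as did TTTGAA, the cell cycle homology region of late cell cycle promoters, with 7.80%, 9.95%, 20.5% and 18.1%. The E-box CACGTG was present in 7.6%, 11.2%, 5.94% and 7.05%, and the cAMP response element TGACGTCA in 2.0%, 3.48%, 1.31% and 1.77%. Values in each of these sentences follow the same order of classes. Without regard to CpG content, the shares under the deep intervals were nearer to those under other intervals for the SP, ETS, AP-1 and cell cycle words. They were nearer to those under none for the E-box and the cAMP response element. Among start regions with 20 or more CpG, the ETS word was present in 14.2%, 21.3% and 15.9% under deep, other and no intervals. The cell cycle word was present in 6.27%, 7.58% and 6.44%, and for both words the deep share was nearer to none. The E-box was present in 7.41%, 11.8% and 11.6% of these regions, and the cAMP response element in 1.99%, 4.00% and 3.76%. For these words, as for the ETS and cell cycle words, the share under deep intervals was the lowest of the classes. The same held at this CpG content for AP-1 (1.99%, 2.56% and 3.24%) and NF-Y (29.9%, 33.9% and 32.6%). For the SP word the deep share was the highest (84.6%, 83.0% and 77.4%). The Wilson interval of the deep share was 0.97% to 4.06% for the cAMP response element and overlapped those of both other classes. That for the E-box, 5.10% to 10.6%, overlapped only that of regions under none.

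Genes with both a covered and an uncovered start gave a comparison within the gene. Of the 153 such genes, 119 had an uncovered start upstream of the covered one and 34 only downstream. The covered start had more CpG in 131 genes (85.6%, 95% Wilson interval 79.2% to 90.3%), fewer in 20 and as many in 2. The median was 27 CpG per 300 bases at covered and 7 at uncovered starts, with the richest region taken where a gene had several of a kind. A 7-letter E2F word was present at the covered start in 37 of the genes and at an uncovered one in 11. In 10 of the 153 a further start was covered by another consensus interval. Gene against gene the order was not fixed: Mad2l2 had 17 CpG at the covered start and 41 at the uncovered one, and Srebf1, a regulator of lipid synthesis, 14 and 36. Among genes with more CpG at the covered start, Cacna1c, a calcium channel subunit, had 57 and 7. Gnas, an imprinted gene of G protein signalling, differed less, with 40 and 27.

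**Figure D4:**
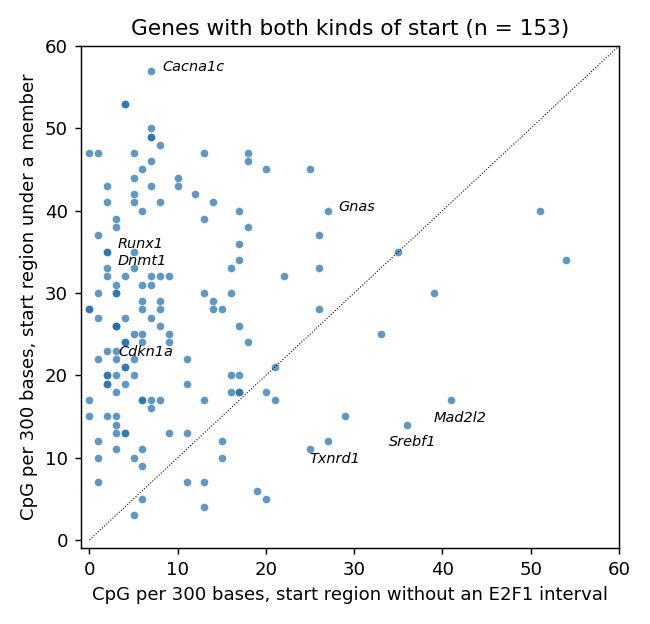
CpG per 300 bases at the start region without an E2F1 interval (x) and at the start region under a gene-body interval (y) for the 153 genes with both kinds, 1 point per gene, with the dotted line at equal values. Of the points, 131 lie above the line and 20 below it.

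The intervals lay mostly towards the 5′ end of their genes. Over a start, the median distance from the 5′ boundary was 6078 bp, or 21.1% of the gene's length, and 84.5% lay nearer to the 5′ than to the 3′ boundary. Over no start the median was 11534 bp and 28.0%, and 64.7% lay nearer to the 5′ boundary. The nearest boundary of any gene was a median of 4365 bp away, with 187 intervals over 10000 bp (27.5%) and 30 over 50000 bp away. The farthest was in Celf2, an RNA-binding splicing regulator, 152125 bp from any boundary, with folds of 6.83 and 6.47 and its summit 57 bp from a listed start in replicate 1. Next to the 1000 bp limit, an interval of the class was in Prkag2 (1015 bp, folds 6.53 and 18.1), and outside the class were intervals in Rps6ka4 (1000 bp, 13.0 and 14.0) and Map1b (999 bp, 8.24 and 15.7).

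In all, 653 of 21887 coding genes held such an interval, a background of 2.98%. They were long genes, with a median of 52106 bp against 17169 bp for coding genes. A further consensus interval within 1000 bp of one of their boundaries was present for 138 (21.1%, 95% Wilson interval 18.2% to 24.4%), below the background of 31.2% of coding genes. Among genes over 50 kb the shares were 21.0% and 39.0%. Hosts of intervals over a start had one in 18.8% of cases and hosts of intervals over no start in 36.4%. The rule bears on these shares, since the only listed start of a host can be the one under its deep interval. Such a host has no other listed start near a boundary. The shares are therefore descriptions, and their differences from the background were not tested. By chromosome, the class made up from 6.09% of consensus intervals on chromosome 13 to 15.7% on X, leaving out Y with 1 consensus interval.

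The 10 intervals of highest rank by fold that no EV peak overlapped were in Trmo, Rfc1, Ppp1cc, Angel2, Arhgef10, Stag1, Pcgf5, Mxi1, Ccnl1 and Zfp800. All but that in Arhgef10, which is not in the start table, covered 1 or more start regions of the host. Rfc1, the large subunit of the clamp loader that puts PCNA on DNA, had folds of 41.9 and 69.5 at chr5:65334713-65336030, with the summit 115 bp downstream of the start in replicate 1. Ppp1cc, a catalytic subunit of protein phosphatase 1, had 40.7 and 65.5. Pcgf5, a Polycomb group ring finger protein, had 28.6 and 68.5, and Mxi1, which competes with Myc for the partner Max, 31.8 and 50.2. In these genes replicate 2 was the higher one, while in Stag1 replicate 1 was.

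Cell cycle genes were counted against the backgrounds of 2.98% of coding genes that held a deep interval and 31.2% that had one at a boundary. Of 58 listed genes of G1/S and DNA replication 3 held one (5.17%: Rfc1, Dnmt1 and Chaf1a), and 94.8% had a consensus interval at a gene boundary. Both Chaf1a intervals were overlapped by EV peaks, as given above, so the count for this list includes a gene with such peaks in EV cells. Of 42 genes of G2/M and mitosis 0 held one and 85.7% had an interval at a boundary. Of 39 regulators of the RB and E2F network 4 held one (10.3%), beside 74.4% with an interval at a boundary. The lists differ in gene length, with medians from 18675 to 27141 bp in these 3, so the counts are descriptions. Dnmt1 had folds of 21.8 and 38.5 at chr9:20951418-20953657, over the start printed above and a further one at 7265 bp.

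Among the RB and E2F regulators, Cdkn1a had folds of 7.57 and 31.6 at chr17:29092920-29095950. Its summit was 894 bp downstream of the internal start in replicate 1 and 1740 bp downstream in replicate 2. Ccnd3, a D-type cyclin, had 19.2 and 13.4 over a start, with the mean summit position 93.6% of the way along the annotated gene. Lin54, a DNA-binding subunit of the MuvB complex, had 5.35 and 12.2. Myc, the growth-promoting transcription factor, had 5.32 and 5.58 and is not in the start table. Replicates differed most in Cdkn1a, where replicate 2 was over 2 times as high.

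Transcription factors of mesenchymal cells held the most of the 8 lists, in 20 of 80 genes (25%, background 2.98%), with a boundary interval in 52.5% (background 31.2%). These genes were also long, with a median of 95689 bp. Nr2f2, an orphan nuclear receptor of mesenchyme, had the widest interval, 4529 bp at chr7:70358406-70362934, with folds of 16.8 and 61.0 over no listed start. Stat5b, a signal transducer of cytokines, had 12.1 and 35.3 over a start. Mef2a, a MADS box factor, had 12.8 and 30.4, and Foxp1, a forkhead factor, 12.4 and 31.7, both over a start. In Runx1 the folds were 8.01 and 10.1. The first 4 of these were higher in replicate 2 by over 2 times. Both Zfhx3 intervals, in a homeodomain zinc finger gene, differed less, with folds of 18.5 and 23.1 over no start and 8.07 and 5.14 over a start.

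Of 52 chromatin regulators 7 held one (13.5%, background 2.98%), with boundary intervals in 75% (background 31.2%). Kdm2b, a CpG-binding histone demethylase, had 19.8 and 51.2, Brd3, an acetyl-lysine reader, 28.2 and 38, and Hdac4, a class IIa deacetylase, 39.0 and 26.9. The de novo DNA methyltransferase Dnmt3a had 15.3 and 16.0. All of these covered a start of the host, while the interval in Arid1b, a subunit of the BAF remodelling complex, covered none and had 8.07 and 11.5.

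Against the same backgrounds of 2.98% and 31.2%, of 53 genes of extracellular matrix and cytoskeleton 5 held one (9.43%, boundary intervals in 39.6%), of 54 genes of growth factor and TGF-beta signalling 5 (9.26%, boundary intervals in 77.8%) and of 28 AP-1 and immediate early genes 2 (7.14%, boundary intervals in 75%). Lmna, the gene of lamins A and C, had folds of 10.3 and 5.13 over a start with 7 CpG per 300 bases, beside an uncovered upstream start with 1. Nr4a1, an immediate early nuclear receptor, had 4.96 and 10.5, and its relative Nr4a2 4.96 and 9.33. Ptch1, the Hedgehog receptor, had 16.6 and 15.6, with the summit 2498 bp downstream of the covered start in replicate 1. None of these reached the folds of the 10 highest intervals in both replicates.

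Several intervals shared a host in 27 genes, 25 of them with 2. Bcor, which encodes a corepressor of BCL6 and a subunit of a variant Polycomb complex, held 5, none over a listed start. Their folds in replicates 1 and 2, from the 5′ side, were 17.4 and 13.2, then 8.88 and 8.20, then 6.67 and 6.65, then 11.9 and 11.5, and 13.2 and 23.8. The last was the only one of the 5 with the higher fold in replicate 2. The start region listed for Bcor, 161 bp from its 5′ boundary with 21 CpG, was covered by no consensus interval. Plec, the gene of the cytoskeletal linker plectin, held 3 with folds of 4.57 to 10.1. Cic, a transcriptional repressor, held 2, with 12.5 and 18.7 over no start and 15.7 and 27.8 over a start. In Mxi1 the interval over a start had 31.8 and 50.2 and a second one without a start 7.52 and 6.96. Both intervals of Rere, a nuclear receptor coregulator, lay over 50 kb from any boundary and over no start, with 10.3 and 16.0 and with 22.6 and 24.1.

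**Figure D5:**
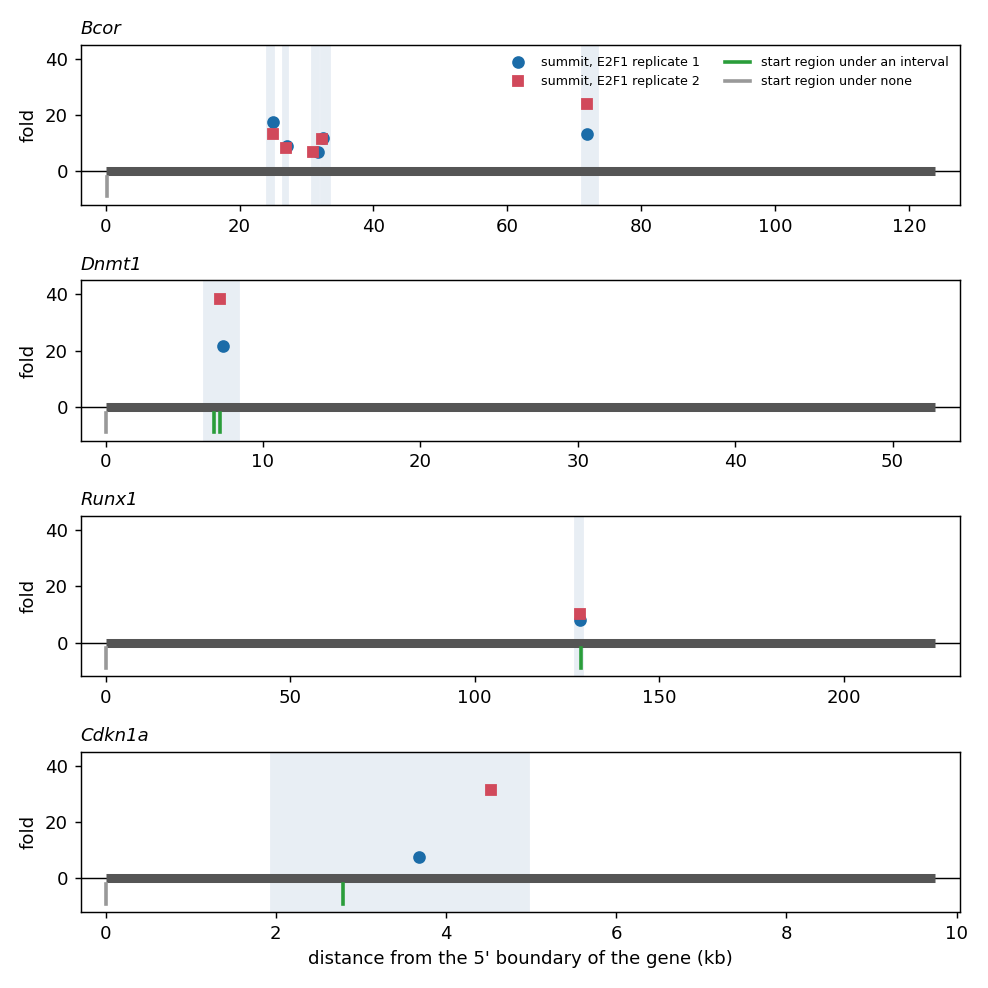
Distance from the 5′ boundary of the gene in kb (x) and fold enrichment (y) at the summits in E2F1 replicate 1 (circles) and replicate 2 (squares) for Bcor, Dnmt1, Runx1 and Cdkn1a; shaded bands are the intervals and ticks below the gene bar the listed start regions, green under an interval and grey under none. Bcor has 5 intervals and an uncovered start, and the other 3 genes each have an uncovered start at the 5′ boundary and a covered one inside.

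The 116 intervals over no listed start of a listed host differed from the others in place and height. Their nearest start of the host was a median of 8092 bp away, with 16 within 1000 bp and 52 over 10000 bp away. The highest by fold in replicate 2 was in Nr2f2. Crocc2 had 22.0 and 44.4, and Acaca, which encodes the acetyl-CoA carboxylase of fatty acid synthesis, 17.1 and 42.0. Cyp26b1, a retinoic acid hydroxylase, had 22.9 and 27.8. In all 4 of these replicate 2 was higher than replicate 1. Whether starts that the table does not list underlie them was not tested.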

How the data were processed

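Peak lists of 2 E2F1 and 2 EV libraries were used, and the 2 input samples of the EV cells were not used here. Titles gave each sample's group and number. The submitters' processing notes name FastQC, Trimmomatic, Bowtie2, MACS2, ChIPseeker and mm10, with no versions or roles. The labels' protocol describes RNA, so the antibody and the peak-calling settings are not given in the sources used here. Each list has the narrowPeak layout: the deposited score is a whole number per peak, the fold enrichment is a deposited ratio of summit to local background, and the deposited −log10 p-value was at least 10.0001. Peaks were called per sample by the authors, since the lists differ.

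Peaks of both E2F1 lists overlapping by at least 1 bp were merged with Python 3.11.15, pandas 2.3.3, numpy 2.4.6 and scipy 1.17.1, and placed by the RefSeq gene table (GRCm38.p6, 49943 genes, 21887 coding). Each interval took the highest fold of each list. Start regions came from a RefSeq table of 32850 starts in the same assembly, matched by gene ID, and 17492 coding genes matched; the table has no entry on chromosome 18, which held 24 of the intervals. Overlapping start regions of a gene were merged into 30761. Reads at the summit were solved from fold and p-value. Wilson intervals at 95% cover counting error only. The p-values, with 2 libraries per group, are at the lowest value that this number allows. They do not measure the spread between these libraries, which may be technical. The 8 gene lists hold 410 symbols. The members and lists were chosen with earlier results of these data known. Named intervals follow a rule: the 10 of best mean rank by fold without EV overlap, all with EV overlap, the 5 genes holding most, up to 6 per list, and those nearest the limit, farthest, widest and lowest. Genes shown for their sequence, for CpG at both starts, among the intervals over no start, and Runx1 and the second Zfhx3 interval were chosen after their values were seen. Alternatives were other distance limits, overlaps, scores, words and leaving out each library. One interval that the rule names is not reported here. Scripts were tested on simulated data.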

Additional observations from a re-analysis of the deposited data

How the results depend on the processing

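The share of consensus intervals deep in gene bodies, 9.69%, moved with the limit: 12.0% over 500 bp, 6.54% over 2500 bp and 4.47% over 5000 bp from every boundary, 11.8% with coding boundaries only, 12.4% by summits and 8.90% at scores above each list's median. With 1 E2F1 list left out it was 10.8% to 11%. The EV overlap of 0.295% became 0.0% at scores above the median. The log2 ratio of peak numbers, 5.04, ranged from 3.50 to 6.58 when 1 library was left out, and was 6.90 at scores of at least 312; with the replicate number as a block it stayed 5.04, with an exact sign-flip p of 0.5. Pairing by number is not stated in the labels. The fold difference from boundary intervals, -0.06, reversed to 0.024 for intervals over a start only and was -0.31 for those over none, both chosen after seeing the data. Host genes with a boundary interval rose from 21.1% to 47.6% within 2500 bp, and were 26% to 27.0% with 1 list left out. Within 2500 bp the deep intervals nearest to a boundary may themselves be counted, and no background of coding genes is given there. The rise therefore says nothing about further intervals. The Spearman rho of 0.70 was 0.82 for the score. Of 452 intervals over a start 5.09% held an 8-letter word there and 22.8% a 7-letter word, the latter chosen after seeing the data. The cause of these shifts was not tested. Of 36 alternatives 21 kept the direction and moved the result by less than its error or left its test as it was. The planned motif search around summits needs a genome and was not run; start regions took its place. Depth is known only through the background of 1.18 to 2.20 reads, and a site not listed may still carry signal.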
